A study of Mus musculus with 5 samples.

Results

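Centromere, kinetochore and spindle checkpoint genes were described in mouse CD4+ T cells activated by a tumor in the animal and in their naive counterparts. The 41 members were chosen by name as the components of these structures and their regulators, and every probe set whose platform gene symbol was a member was taken, 86 of the 45101 probe sets on the array. All 41 genes had at least 1 probe set and all 41 passed the filter on dim values (above percentile 40 of the array on 2 or more arrays), which left 12860 of 18193 genes. The cells came from adult BALB/c mice of 7 to 12 weeks with the SCID defect, which leaves few lymphocytes beside those that carry the transgene, and all carried a transgenic T cell receptor that recognises MOPC315, a myeloma line derived from plasma cells. The activated group (3 arrays) was taken on day 8 from lymph nodes draining 100000 MOPC315 cells placed under the skin in 250 µl of Matrigel, pooled from 12 to 15 mice, and was sorted as CD4+ and GB113+ to a purity of at least 95%. The naive group (2 arrays) was sorted as CD4+ from the pooled nodes of mice without tumor and prepared in the same way, and no Matrigel-only group was analysed here. Each array came from an independent experiment, per the labels.

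The centromere is the stretch of a chromosome marked by the histone variant CENP-A, and the kinetochore is the protein plate built on it before each division to hold spindle microtubules. An inner layer, the constitutive centromere-associated network (CCAN), binds the CENP-A chromatin. The outer layer includes the Mis12, Ndc80 and RZZ complexes, of which the Ndc80 complex is the main microtubule binder. The spindle checkpoint delays anaphase until every kinetochore is attached, by holding Cdc20 back from the anaphase-promoting complex. When the delay ends, securin is degraded and separase cuts the cohesin that holds sister chromatids together. Naive T cells rest outside the cell cycle, and stimulated T cells divide in bursts.

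Transcription of many late cell cycle genes is known to run through a promoter element named CHR, bound by the MuvB protein complex, together with CCAAT boxes, bound by NF-Y. As 30 of the 41 members were called higher, promoters were read from RefSeq's sequences for build GRCm38.p6, from 250 bases before to 50 after each annotated start. Of the 41 members 36 were matched by symbol, and Aurkb, Incenp, Nsl1, Spc24 and Zwilch were not. The sequences below run from 100 bases before to 30 after the start, with CHR matches (TTTGAA or TTCGAA) and CCAAT matches in capitals, on either strand, so that a box on the other strand reads TTCAAA or ATTGG. Cdc20, Bub1, Cenpa, Cdca8 and Ttk are shown because they rose and hold both motifs near the start. Birc5 is shown because it rose and holds neither. Mis12 and Cenpt are shown as genes that did not pass the test, and neither holds a CHR match. Bub3 also did not pass and holds both motifs near the start, but is not shown. The genes shown are a choice, and counts over all 36 matched members are given further on. The windows were Cdc20 at chr4:118437314-118437443 on the minus strand, Bub1 at chr2:127831830-127831959 on the minus strand, Cenpa at chr5:30666786-30666915 on the plus strand and Cdca8 at chr4:124936888-124937017 on the minus strand. The others were Ttk at chr9:83834589-83834718 on the plus strand, Birc5 at chr11:117849137-117849266 on the plus strand, Mis12 at chr11:71019511-71019640 on the plus strand and Cenpt at chr8:105851979-105852108 on the minus strand.
Cdc20: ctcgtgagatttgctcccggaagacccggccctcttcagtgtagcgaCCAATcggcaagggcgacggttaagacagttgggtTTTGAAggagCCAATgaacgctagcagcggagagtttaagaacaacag
Bub1: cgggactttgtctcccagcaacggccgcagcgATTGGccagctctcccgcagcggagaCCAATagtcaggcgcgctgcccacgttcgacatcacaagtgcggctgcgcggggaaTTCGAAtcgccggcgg
Cenpa: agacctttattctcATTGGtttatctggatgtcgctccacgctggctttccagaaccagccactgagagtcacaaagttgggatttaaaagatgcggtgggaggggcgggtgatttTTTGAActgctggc
Cdca8: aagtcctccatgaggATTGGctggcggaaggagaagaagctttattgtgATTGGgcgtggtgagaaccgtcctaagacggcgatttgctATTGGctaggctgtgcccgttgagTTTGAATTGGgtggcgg
Ttk: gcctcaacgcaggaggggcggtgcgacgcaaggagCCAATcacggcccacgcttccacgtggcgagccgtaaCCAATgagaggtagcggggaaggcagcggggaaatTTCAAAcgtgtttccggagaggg
Birc5: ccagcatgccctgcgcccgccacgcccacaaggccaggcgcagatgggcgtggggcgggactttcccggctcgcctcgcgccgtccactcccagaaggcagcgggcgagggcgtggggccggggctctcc
Mis12: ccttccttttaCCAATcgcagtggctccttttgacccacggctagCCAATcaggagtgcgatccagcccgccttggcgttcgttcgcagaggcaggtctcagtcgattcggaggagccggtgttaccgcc
Cenpt: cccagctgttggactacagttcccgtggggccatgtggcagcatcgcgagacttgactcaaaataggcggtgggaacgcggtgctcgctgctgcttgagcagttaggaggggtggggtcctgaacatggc
In Cdc20 the CHR match lies between a pair of CCAAT boxes, and in Cdca8 it overlaps a reversed CCAAT box by 1 base. Cenpt and Birc5 show no capitals, and Mis12 has CCAAT boxes with no CHR match.

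Activated cells had more transcript of most members. Of the 41 tested, 30 were called higher and 0 lower, and 11 did not pass (limma, adjusted p below 0.05 by Benjamini-Hochberg over all 12860 genes). Over all tested genes 6.37% were called higher and 4.14% lower, and 89.5% did not pass. Of the 30, 7 passed the filter only through the activated arrays and are named with the spindle checkpoint genes below. With no filter at all, 29 members were called higher. All 30 were higher by over 2-fold on the log2(intensity + 16) scale, where 3.81% of all tested genes were, and 16 of them by over 4-fold. The median log2 fold change of the 41 members was 1.78, against -0.03 over all tested genes. In 31 members every activated array lay above both naive arrays, which held for 20.3% of all tested genes. In 2 members, Zw10 and Cenpj, every activated array lay below, which held for 20.7% of all tested genes, and in the other 8 the groups overlapped. In these bulk samples, more cells in division and more transcript in each dividing cell cannot be told apart. Intensities of different probe sets are not on a common scale, so levels are compared only between arrays for the same gene. Values per array are the deposited linear intensities, and each change is a log2 fold change of intensity + 16, activated over naive, with its SE from limma.

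**Figure D1:**
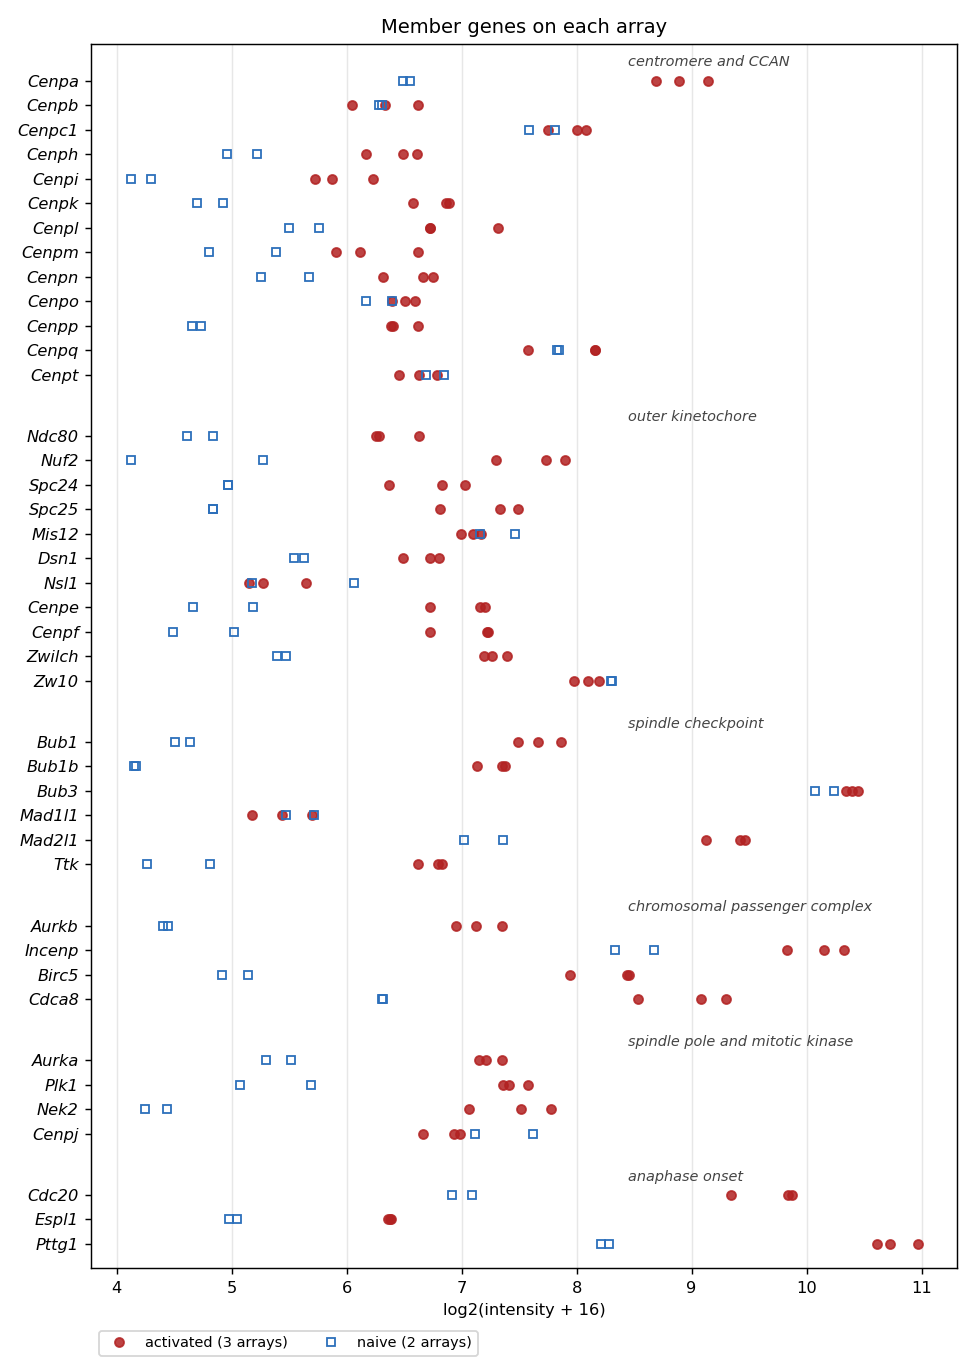
Intensity of each member gene on each array, as log2(intensity + 16) on the horizontal axis, with 3 activated arrays as filled circles and 2 naive arrays as open squares, grouped by role. In 31 of the 41 genes all circles lie to the right of both squares, and positions are not comparable between genes.

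The arrays differed in ways that touch these results. The summed intensity of 10 myeloid and dendritic markers was 3646, 171 and 866 on activated replicates 1, 2 and 3, against 393 and 230.1 on the naive arrays. Lyz2, the lysozyme of macrophages and neutrophils, had 1954, 35.8 and 354 on the activated arrays, against 118 and 60.3 on the naive arrays. Without activated replicate 1, 29 members were called higher and 0 lower, with a median log2 fold change of 1.81. Markers of B and plasma cells, the lineage of the tumor, summed to 122 to 135 on the activated arrays, against 162 to 183 on the naive arrays, over 9 markers. The plasma cell surface protein gene Sdc1 had 7.8, 4.8 and 1.5 on the activated arrays, against 21.2 and 21.1 on the naive arrays, and Tnfrsf17 lay under the filter intensity of 10.6 to 13.4 on every array. No B or plasma cell marker of the list was called higher in activated cells. Prdm1, which T cells also express, was called lower and was the largest naive part of the sum, at 82.9 and 67.4. On the activated arrays it had 38.5, 23.0 and 18.9. Means of Cd79b, Pax5, Jchain and Mzb1 were higher in activated cells, and those of the other markers lower. Pax5 had means of 22.1 in activated and 10.35 in naive cells, and Jchain 19.3 and 12.55. Over 9 genes of T cell identity the summed intensity was 17528 to 19517 in activated and 16578 to 17249 in naive cells, with Cd3d at 4906, 4509 and 4131 against 4258 and 4042. Of these 9 genes, Cd5 was called higher, at 926, 1118 and 1241 in activated cells, against 305 and 275 in naive cells (log2 fold change 1.85), and Thy1 was called lower, at -0.79. The ratio of the 3' to the 5' control probe set of beta-actin, a sign of RNA integrity, was 1.19 to 1.29 on activated arrays, against 1.42 and 1.78 on naive arrays. The same ratio of Gapdh was closer between the groups, at 0.685 to 0.74 on activated arrays, against 0.742 and 0.786 on naive arrays. The part of these ratios in the results was not tested. Other marker sums, whose part was likewise not tested, were 584 to 1464 in activated and 468 to 504 in naive cells for 5 natural killer markers and 271 to 406 against 852 to 1040.3 for 2 CD8 markers, of which Cd8b1 was called lower. The highest natural killer sum, 1464, was again that of activated replicate 1, where Ncr1 had 265, against 5.6 to 11.2 on the other 4 arrays. Klrd1 of that list had 405, 276 and 409 in activated cells, against 298 and 434 in naive cells. Eomes, which T cells also express, was called higher, at 696, 282 and 441 against 155 and 43.4, and is part of the sum. The sums of 8 stromal and epithelial markers were 352 to 417 in activated and 259 to 296 in naive cells. Most of each was Pecam1, which was called higher, at 305, 259 and 345 in activated cells, against 158 and 169 in naive cells. The sums of 2 erythroid markers, Hba-a1 among them, were 11.3 to 24.9 in activated and 5.3 to 21.8 in naive cells.

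The 13 genes of the centromere and the CCAN split into 8 that rose and 5 that did not pass. Cenpa, the centromeric histone itself, had 398, 459 and 549 on the activated arrays, against 73.6 and 77.5 on the naive arrays. Its log2 fold change was 2.39 ± 0.18 (SE, adjusted p = 2.39e-05). Each activated array stood far above both naive arrays, and the activated arrays spread more than the naive ones. Cenph, Cenpi, Cenpk and Cenpm encode the CENP-H/I/K/M module of the CCAN, and all 4 rose. Cenpk had 79.6, 102.5 and 100.1 in activated cells, against 9.9 and 14.3 in naive cells, for a log2 fold change of 1.97 ± 0.21. Cenpi had 42.7, 36.9 and 59.1 in activated cells, against 3.7 and 1.4 in naive cells, and rose by 1.73 ± 0.25 (adjusted p = 0.0017). Cenph had 55.7, 81.9 and 73.6 in activated cells, against 15.0 and 21.3 in naive cells, for a log2 fold change of 1.33 ± 0.23. In these genes each activated array lay above both naive arrays.

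Cenpl and Cenpn, whose proteins form the pair that reads CENP-A nucleosomes, rose by 1.29 and 1.11. Cenpl had 89.6, 89.6 and 142.9 in activated cells, against 29.1 and 38.2 in naive cells, and Cenpn had 63.5, 91.4 and 85.4 in activated cells, against 34.8 and 22.2 in naive cells. Neither gene's groups overlapped. Cenpm of the H/I/K/M module rose by 1.12 ± 0.28. It had 53.4, 82.3 and 43.9 in activated cells, against 25.7 and 11.9 in naive cells (adjusted p = 0.029, the highest among the called members). Its call was lost without the filter, at 1.12, and in 3 fits that left out an array: activated replicate 1 (1.17), activated replicate 2 (0.92) and naive replicate 2 (0.83). The call of Cenpn was lost without activated replicate 2, at 1.03, and without naive replicate 2, at 0.91. Cenpp, Cenpo and Cenpq encode subunits of another CCAN complex, and of these Cenpp passed the test. Cenpp had 68.8, 82.6 and 67.3 in activated cells, against 10.6 and 9.2 in naive cells, a log2 fold change of 1.78 ± 0.21 (adjusted p = 4.48e-04). Cenpo had 74.7, 68.3 and 80.7 in activated cells, against 55.8 and 68.3 in naive cells, so that its groups met at 68.3. Cenpq had 175, 269 and 271 in activated cells, against 212 and 214 in naive cells, and the activated arrays lay on both sides of the naive ones. The log2 fold changes of Cenpo and Cenpq were 0.22 and 0.13, with adjusted p of 0.55 and 0.77; whether they differ from that of Cenpp was not tested.

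The other centromere genes that did not pass were Cenpb, Cenpc1 and Cenpt. CENP-B binds a sequence in satellite DNA, CENP-C is a scaffold between CENP-A and the outer layer, and CENP-T carries a separate link to the Ndc80 complex. Cenpb had 82.4, 50.1 and 64.7 in activated cells, against 61.8 and 63.2 in naive cells, with a 95% interval for its log2 fold change of -0.45 to 0.53. Cenpc1 had 199, 255 and 240.1 in activated cells, against 209 and 176 in naive cells, with an interval of -0.15 to 0.64. Cenpt had 94.0, 71.7 and 83.2 in activated cells, against 99.2 and 87.0 in naive cells, with an interval of -0.57 to 0.28. The activated and naive arrays overlapped in all 3.

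**Figure D2:**
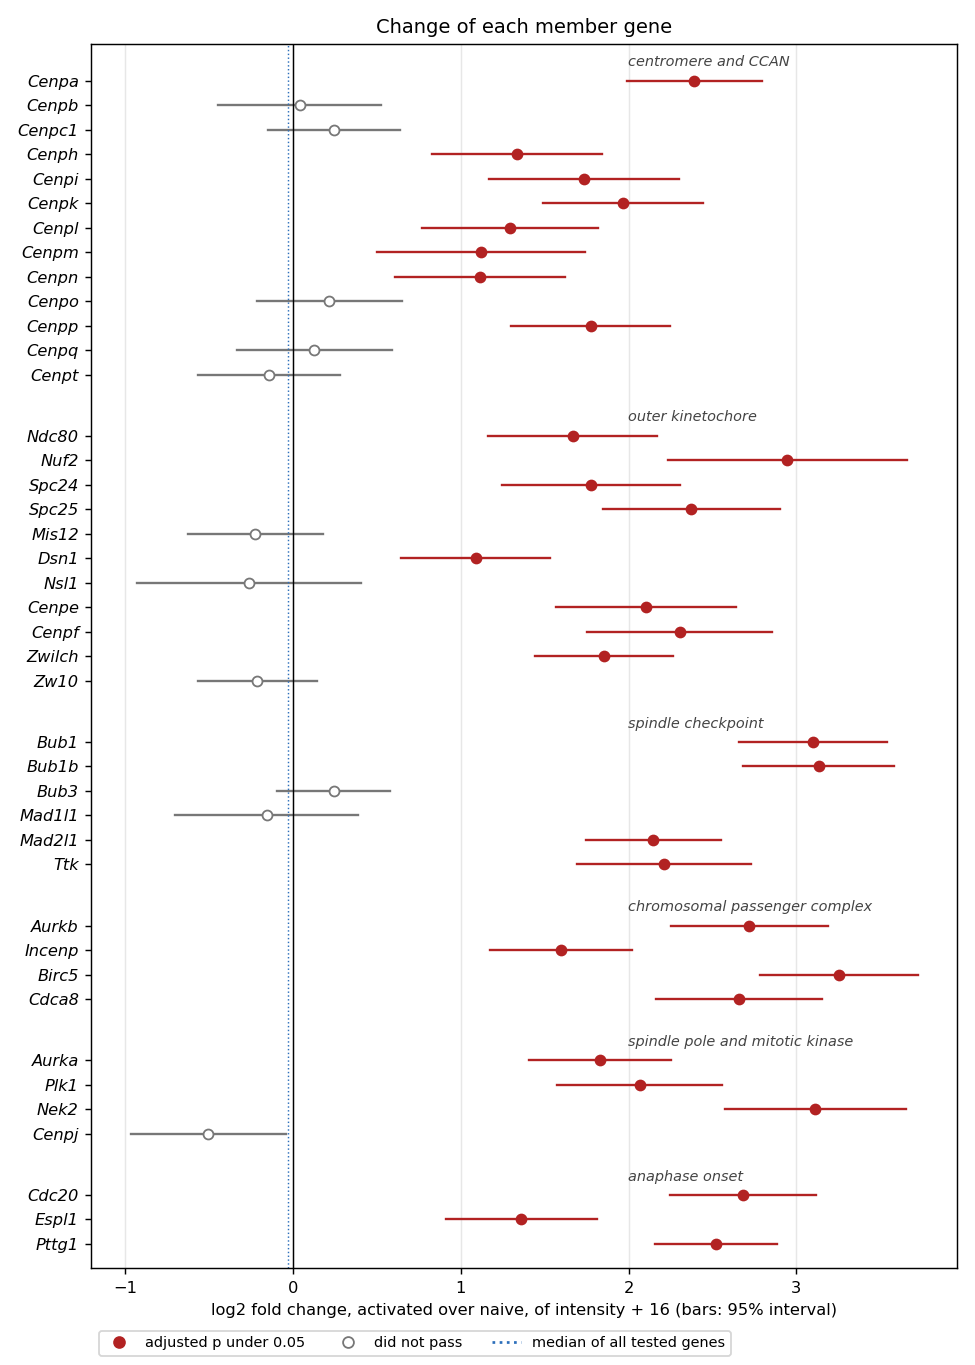
Log2 fold change of each member gene, activated over naive, on the scale of intensity + 16, with its 95% interval from limma's moderated test; filled red circles passed at an adjusted p under 0.05 and open circles did not. The 30 red circles run from 1.09 to 3.26, and the 11 open circles from -0.51 to 0.25.

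In the outer kinetochore all 4 subunits of the Ndc80 complex, the main microtubule binder, rose. Nuf2 had 142, 223 and 197 in activated cells, against 22.7 and 1.4 in naive cells, for a log2 fold change of 2.95 ± 0.32 (adjusted p = 2.49e-04). Its naive arrays differed from each other more than those of any other subunit, which gives Nuf2 the largest standard error of the 4. Spc25 had 96.3, 164 and 146 in activated cells, against 12.6 on both naive arrays, and rose by 2.38 ± 0.24. Spc24 had 66.4, 115 and 97.5, against 15.3 and 15.2 in naive cells, and rose by 1.78 ± 0.24. Ndc80, also known as Hec1, had 61.8, 82.7 and 60.4 in activated cells, against 12.5 and 8.4 in naive cells, both below the filter intensity, and rose by 1.67 ± 0.23 (adjusted p = 0.0010). No activated array of these 4 genes came near a naive one.

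Of 3 members in the Mis12 complex, the platform on which the Ndc80 complex stands, 1 rose and 2 did not pass. Dsn1 had 73.6, 95.6 and 89.8 in activated cells, against 33.3 and 30.6 in naive cells, and rose by 1.09 ± 0.20 (adjusted p = 0.0061). Mis12 itself had 128, 121 and 111 in activated cells, against 127 and 160.0 in naive cells, a log2 fold change of -0.22 (adjusted p = 0.50). Nsl1 had 22.7, 34.1 and 19.4 in activated cells, against 50.8 and 20.1 in naive cells, and its other probe set went the opposite way, at 0.44 against -0.26, neither passing. The groups of Mis12 and Nsl1 overlapped. The intervals of Mis12, -0.63 to 0.18, and of Dsn1, 0.64 to 1.53, did not overlap.

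The RZZ complex, which brings checkpoint proteins and dynein to unattached kinetochores, had 2 members, of which Zwilch rose and Zw10 did not pass. Zwilch had 131, 152 and 138 in activated cells, against 26.1 and 28.3 in naive cells, and rose by 1.85 ± 0.19 (adjusted p = 1.4e-04). Zw10 had 236, 257 and 276 in activated cells, against 299 and 300.4 in naive cells, a log2 fold change of -0.21 ± 0.16 (adjusted p = 0.46). ZW10 protein also serves in vesicle transport outside mitosis. Every activated array of Zw10 lay below both naive arrays, by a margin that did not pass the test. The kinesin motor gene Cenpe had 89.9, 131 and 127 in activated cells, against 20.3 and 9.3 in naive cells, and rose by 2.11 ± 0.24. Cenpf, a large coiled-coil protein of the outer plate, rose by 2.30 ± 0.25, with activated arrays at 89.4, 133 and 134 and naive arrays at 16.4 and 6.4.

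Of 6 spindle checkpoint genes, 4 rose. Bub1b, which encodes BubR1, a part of the complex that holds Cdc20, had 124, 150.2 and 147 in activated cells, against 1.9 and 1.7 in naive cells. Its log2 fold change was 3.13 ± 0.20 (adjusted p = 1.03e-05). The naive values lay far below the filter intensity, so the size of this change depends on the pseudocount: it was 5.66 with a pseudocount of 1 and 1.63 with 64. Bub1, the kinase that marks kinetochore chromatin, had 163, 187 and 217 in activated cells, against 8.9 and 6.7 in naive cells, and rose by 3.10 ± 0.20. Ttk, also called Mps1, the kinase at the head of the checkpoint, had 82.1, 95.0 and 97.7 in activated cells, against 3.2 and 12.0 in naive cells, and rose by 2.21 ± 0.23. Mad2l1, which encodes the Mad2 protein that clamps Cdc20, had 543, 668 and 689 in activated cells, against 148 and 114 in naive cells, and rose by 2.15 ± 0.18 (adjusted p = 4.92e-05). Its groups are far apart and both lie well above the filter intensity. In all, 7 called members had both naive arrays below the filter intensity (Cenpi, Cenpp, Ndc80, Bub1, Bub1b, Aurkb and Nek2), and the order of their fold changes has no meaning. These 7 passed the filter through the activated arrays alone, the group in which they are high.

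The 2 checkpoint genes that did not pass were Bub3 and Mad1l1. BUB3 is the adaptor that recruits BUB1 and BUBR1, and MAD1 is the kinetochore anchor of MAD2. Bub3 had 1285, 1331 and 1381 in activated cells, against 1060.2 and 1191 in naive cells. Every activated array lay above both naive arrays, but the log2 fold change was 0.24 ± 0.15 (adjusted p = 0.37), with a 95% interval of -0.09 to 0.58. Mad1l1 had 36.0, 20.2 and 27.3 in activated cells, against 28.4 and 36.6 in naive cells, with an interval of -0.70 to 0.39. Its groups overlapped.

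All 4 genes of the chromosomal passenger complex rose. This complex corrects wrong attachments through the kinase Aurora B. Birc5, which encodes survivin, had 230.3, 331 and 336 in activated cells, against 19.2 and 14.1 in naive cells, for a log2 fold change of 3.26 ± 0.21 (adjusted p = 1.03e-05). Aurkb, the kinase, had 108, 147 and 124 in activated cells, against 5.1 and 5.8 in naive cells, and rose by 2.72 ± 0.21. Cdca8, which encodes borealin, had 354, 524 and 615 in activated cells, against 62.9 and 63.8 in naive cells, and rose by 2.66 ± 0.22. Incenp, the scaffold of the complex, had 896, 1124 and 1264 in activated cells, against 307 and 392 in naive cells, and rose by 1.60 ± 0.19 (adjusted p = 4.18e-04). In each of the 4 every activated array lay above both naive arrays.

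Among the mitotic kinases and spindle pole genes, 3 of 4 rose. Nek2, a centrosome kinase, had 118, 204 and 168 in activated cells, against 2.9 and 5.7 in naive cells, and rose by 3.11 ± 0.24. Plk1, the polo-like kinase, had 148, 175 and 155 in activated cells, against 35.7 and 17.7 in naive cells, and rose by 2.07 ± 0.22. Aurka, the spindle pole Aurora kinase, had 126, 132 and 147 in activated cells, against 29.7 and 23.3 in naive cells, and rose by 1.83 ± 0.19 (adjusted p = 1.89e-04). The exception was Cenpj, also known as CPAP, which builds centrioles and is not a kinetochore protein despite its symbol. Cenpj had 107, 85.5 and 111 in activated cells, against 123 and 180.3 in naive cells, the lowest log2 fold change of the 41, at -0.51 ± 0.21. Its groups did not overlap, and its adjusted p was 0.17. Its unadjusted p was under 0.05, as it was for 24.3% of all tested genes.

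The 3 genes of anaphase onset all rose. Cdc20, the activator of the anaphase-promoting complex and the target of the checkpoint, had 633, 900.4 and 924 in activated cells, against 105 and 120.4 in naive cells, for a log2 fold change of 2.68 ± 0.20 (adjusted p = 1.87e-05). Pttg1, which encodes securin, had 1547, 1990 and 1678 in activated cells, against 296 and 280.3 in naive cells, and rose by 2.52 ± 0.16. Espl1, which encodes separase, had 66.0, 67.5 and 66.9 in activated cells, against 15.5 and 17.0 in naive cells, and rose by 1.36 ± 0.20 (adjusted p = 0.0018). The activator, the inhibitor and the protease of this step thus all had more transcript in activated cells.

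Among the 30 members that rose, activated replicate 1 was the lowest of the 3 activated arrays in 25, replicate 2 in 1 and replicate 3 in 3, and 1 was tied. Over all genes called higher, activated replicate 1 was the lowest in 44.2%, replicate 2 in 23.4% and replicate 3 in 32.2%. The median log2 difference of activated replicate 1 from the mean of the other activated arrays was -0.30 over these members and -0.06 over all genes called higher. This is the array with the highest myeloid and natural killer marker sums; the part of those transcripts in the difference was not tested. The arrays also fell on both sides of a gap in the bioC hybridisation control, with activated replicate 3 and naive replicate 2 on the low side. The median log2 difference of the members was 1.80 between these arrays and 1.67 between the arrays of the high side. On each side 35 of 41 members were higher in activated cells. The same count was not made over all tested genes, and the low side has 1 array of each group, so this describes the arrays only.

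Several members were measured by more than 1 probe set. Of the 86 member probe sets 78 passed the filter, and 45 of those were called higher and 0 lower when each probe set was tested on its own, where 5.58% and 3.07% of all 23698 tested probe sets were. For 20 genes there was more than 1 tested probe set, and in 8 of them every one was called higher. Among genes called higher, 25 further tested probe sets ran from -0.15 to 3.39, and 15 of them were called higher. Cdc20 gave 2.68, 2.47 and 1.63 on its 3 probe sets, all called higher, as were the 3 of Pttg1. The probe sets of Bub1b gave 3.13, 2.90 and -0.15, the last from one with 15.9, 11.2 and 11.5 on the activated arrays, against 13.5 and 18.8 on the naive arrays. Likewise Nek2 gave 3.11, 1.65 and -0.06, Bub1 3.10 and 0.34, and Spc25 2.38 and 0.16. In each of these 4 genes the probe set near 0 was a dim one, at or below 23.2 on every array. Incenp gave 1.60, 1.67, 0.83 and 0.56, of which 0.83 and 0.56 did not pass. The probe set at 0.56 was brighter, with 70.5, 71.8 and 37.1 on the activated arrays, against 49.8 and 22.2 on the naive arrays, and its groups overlapped. In all, 6 genes had probe sets of both signs, Bub1b and Nek2, each with a negative one just given, and Cenpo, Nsl1, Zw10 and Bub3, whose probe sets all failed the test. In all, 17 members, 12 of them called higher, rest on a probe set with the suffix a_at, s_at or x_at, for probes shared between transcripts. With a_at these can be transcripts of the same gene, and Cenpa, Cenph, Cenpp, Nuf2, Spc25 and Birc5 have that suffix among the called members. With all suffixed probe sets left out, 35 members could be tested and 24 rose. Cenph, Nuf2, Aurkb and Birc5 had no other tested probe set, and Spc25 and Cenpp lost their calls, at 0.16 and 0.60. Cenpp also has another probe set without such a suffix, called higher when tested on its own, at 1.66, with 47.5, 64.3 and 63.9 on the activated arrays, against 8.5 and 6.6 on the naive arrays.

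**Figure D3:**
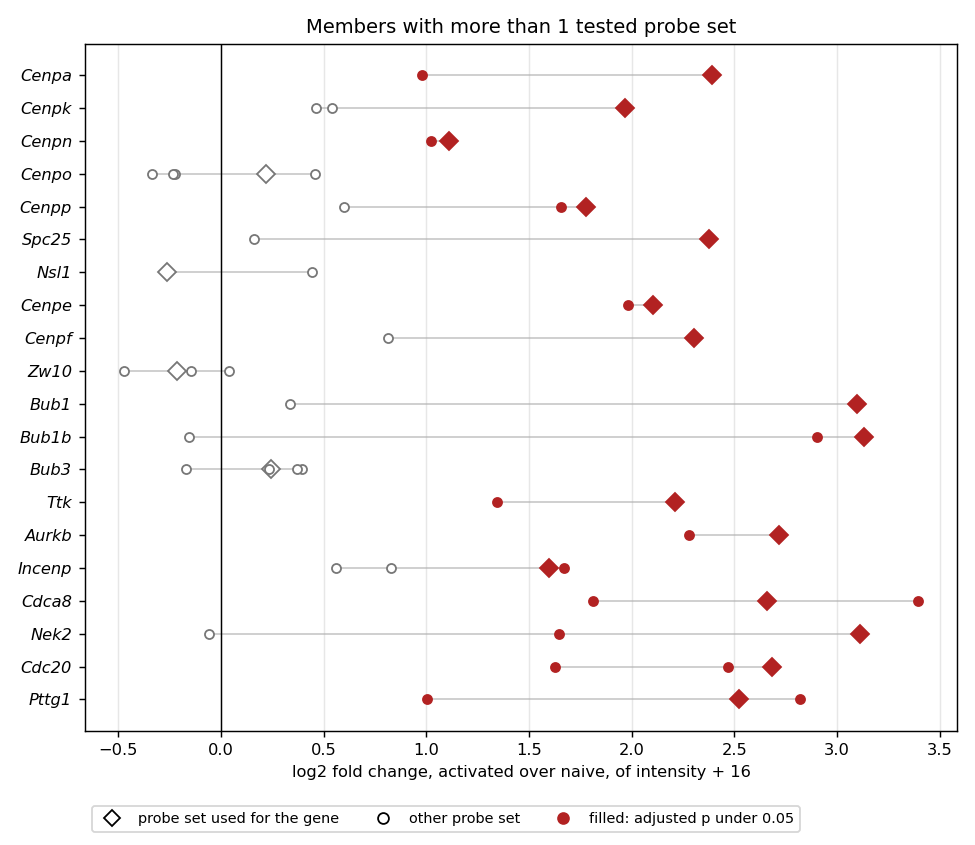
Log2 fold change, activated over naive, of every tested probe set of the 20 members with more than 1, on the scale of intensity + 16; diamonds are the probe sets used for the gene and circles the others, filled where the adjusted p was under 0.05. In Bub1, Bub1b, Nek2 and Spc25 an open circle near 0 lies far to the left of the diamond.

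Other genes of the kinetochore, of the anaphase-promoting complex and of cohesin were listed apart from the members. Their counts stand beside shares of 6.37% called higher and 4.14% called lower over all tested genes. Of 23 further kinetochore and centromere genes tested, 12 rose and 0 fell, and the median of the 23 was 1.10 on the log2 scale. With the filter at percentile 60, or with the mean of all probe sets, 1 of them was called lower. Sgo1, which encodes the shugoshin that protects centromeric cohesin, had 90.3, 120.0 and 149.9 in activated cells, against 2.8 and 1.8 in naive cells, and rose by 2.87 ± 0.24. Tpx2, the activator of Aurora A on spindle microtubules, had 139, 168 and 144 in activated cells, against 13.3 and 6.9 in naive cells, and rose by 2.68 ± 0.21. Some of these genes complete complexes described above. Kntc1, which encodes the Rod subunit of the RZZ complex, rose by 1.58, and Knl1, the checkpoint platform of the outer layer, by 1.10. Pmf1, a subunit of the Mis12 complex, had 87.1, 87.4 and 40.9 in activated cells, against 85.3 and 7.1 in naive cells, and did not pass (adjusted p = 0.38). Of 18 genes of the anaphase-promoting complex and its partners, 4 rose and 0 fell, with a median of 0.11. Without naive replicate 2, without activated replicate 1 or 2, or without the filter, 2 rose. The 4 were Ube2c, at 3.72, and Ube2s, at 1.20, its ubiquitin-conjugating enzymes, Fbxo5, at 1.01, its inhibitor, and Fzr1, at 0.78, its other activator. Ube2c had 322, 391 and 264 in activated cells, against 12.0 and 7.5 in naive cells. None of the 14 subunits of the complex itself on the list passed, where 89.5% of all tested genes did not. Of 14 genes of cohesin and its regulators, 2 rose and 0 fell, with a median of 0.19; 1 was called lower with the bioC side or the replicate number as a block and without naive replicate 1. The 2 were Cdca5, the cohesion factor sororin, at 3.05 ± 0.19, and Esco2, the cohesin acetyltransferase, at 1.995 ± 0.26. The ring subunits Smc1a, Smc3 and Rad21 lay at 0.09, 0.20 and 0.18 and did not pass. In Sgo1, Tpx2, Ska1 and Ska3, all among the 12 further kinetochore genes that rose, and in Ube2c and Esco2, both naive arrays lay below the filter intensity. These genes passed the filter through the activated arrays alone, and the size of their changes depends on the pseudocount.

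**Figure D4:**
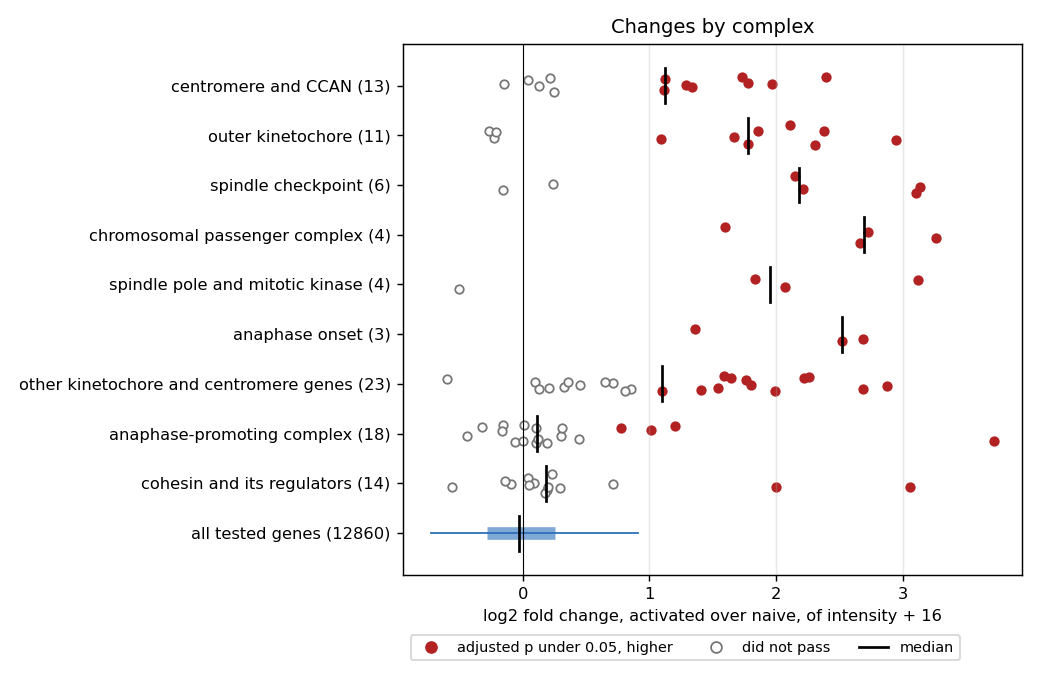
Log2 fold change of each gene, activated over naive, on the scale of intensity + 16, by complex, with filled red circles at an adjusted p under 0.05, open circles for the rest and a black line at each median. The lowest row gives all 12860 tested genes as their middle 50% (thick) and middle 90% (thin); the anaphase-promoting complex and cohesin lists have medians of 0.11 and 0.19 with few genes far to the right.

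The promoter motifs were counted over the whole window of 300 bases on both strands. A CHR match (TTTGAA or TTCGAA) was found in 15 of 26 members that rose and in 2 of 10 that did not pass. The share was 21.7% of all 27018 genes with a promoter sequence and 16.5% of all tested genes. TTTGAA alone was found in 13 of the 26 and 2 of the 10, against 20.2% of all genes. A CCAAT match was found in 19 of the 26 and 4 of the 10, against 41.1% of all genes and 42.4% of all tested genes. Both were found in 14 of the 26 and in 1 of the 10, Bub3, against 8.6% of all genes and 6.6% of all tested genes. Among 614 genes called higher that are not members, 24.9% held a CHR match, 48.4% a CCAAT match and 14.5% both. In the narrower window from 100 bases before to 50 after the start, both were found in 11 of the 26 and 1 of the 10. There the share was 2.4% of all genes, 2.0% of all tested genes and 7.7% of the 614 called genes that are not members. The CHR match of Cdc20 lay at bases -18 to -13 from the start, that of Espl1 at -27 to -22, that of Cenpa at 17 to 22 and that of Bub1 at 15 to 20. Nuf2, Dsn1, Mad2l1, Birc5, Pttg1 and Cenpp rose with neither motif in this window. These counts describe letters in a window, and nothing was measured here of what binds there.

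**Figure D5:**
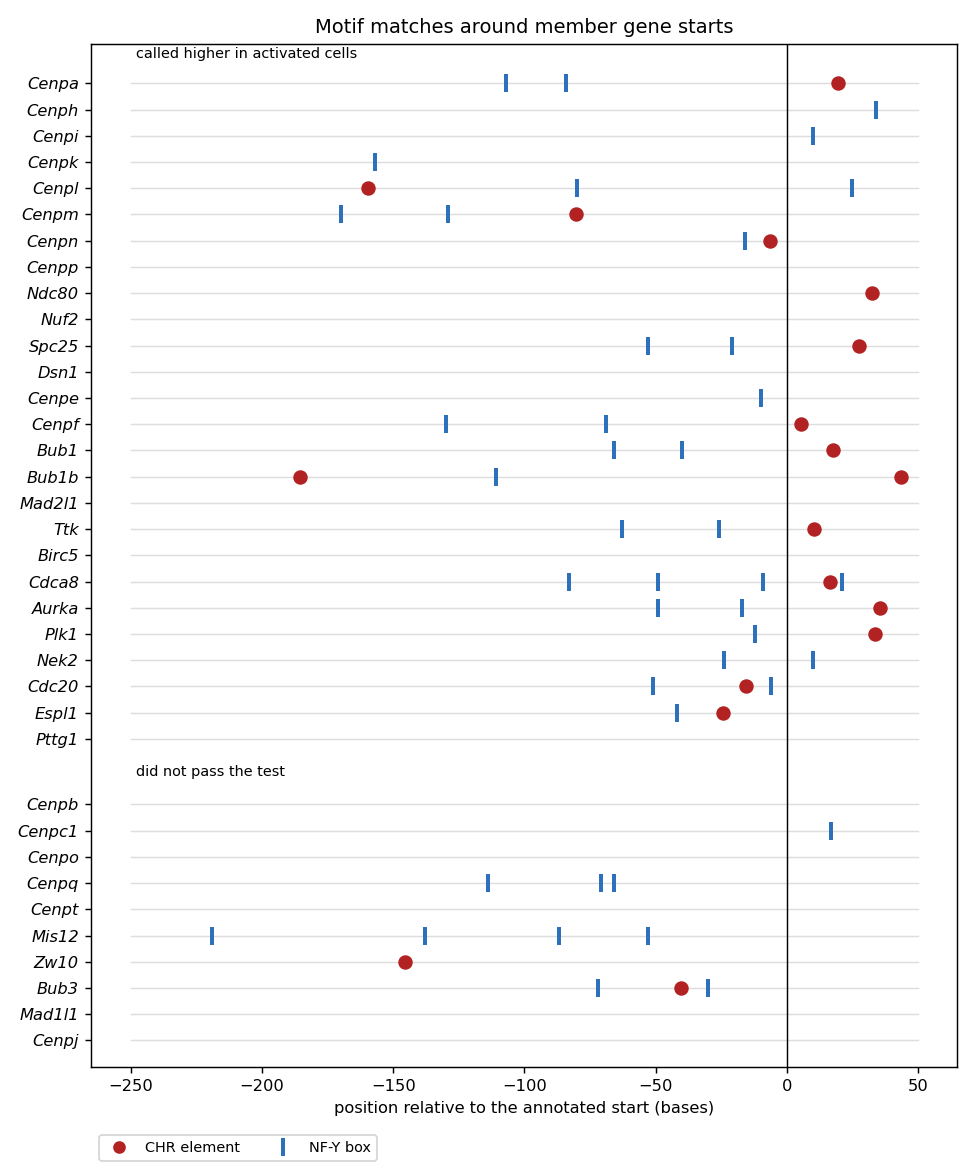
Positions of CHR matches (red circles) and of the CCAAT boxes that NF-Y binds (blue bars) from 250 bases before to 50 after the annotated start of 36 members, with genes that rose above and those that did not pass below; of genes with several starts, the one with the lowest coordinate is drawn. Both marks appear in 14 of 26 upper rows and in 1 of 10 lower rows.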

How the data were processed

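Gene expression was measured on 5 Affymetrix arrays, per the labels from 6 µg of total RNA made into biotin-labelled cRNA. The authors deposited linear intensities, 1 for each probe set on each array. How they were summarised, with which software, is not given in the sources used here, and detection calls were not used. Arrays shared a 2% trimmed mean of 100.0 to 100.001, as a scaling to a common target leaves it, so each change is relative to the bulk of probe sets.

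Probe sets with 1 symbol in the platform annotation (34945; 932 had several) were used, 1 per gene with the highest mean. Values were transformed as log2(intensity + 16), and genes were tested if 2 or more arrays had them above percentile 40 of that array. limma 3.58.1 in R 4.3.3 (lmFit, eBayes with trend, two-sided, Benjamini-Hochberg, 0.05) was fitted over all genes with group as its only term, and again over all probe sets; the code was tested on simulated data. Promoter motifs were searched with Python 3.11.15. Members, gene lists, tests and alternatives were chosen with earlier results of these data known. All members are named, with the largest called changes (up to 2 each way) of the lists of other kinetochore, anaphase-promoting complex and cohesin genes, and of each marker list the gene of highest mean intensity; other names were chosen after their values were seen. No array copied another: pairs shared 0.947% of values at most. Precision is limited by having 3 and 2 arrays.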

Additional observations from a re-analysis of the deposited data

How the results depend on the processing

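In every alternative fitted over genes with 1 probe set each, 24 to 30 members were called higher and 0 lower. The 24 came where probe sets with the suffix a_at, s_at or x_at were left out. Of the 30 called members 26 kept direction and call throughout, where they could be tested; the exceptions, Cenpm, Cenpn, Cenpp and Spc25, are given with the values above. The median log2 fold change of the members was 2.32 with a pseudocount of 1 and 0.97 with 64, 1.29 with the mean of all probe sets, 1.36 without suffixed probe sets and 1.21 over single probe sets. It was 1.70 to 1.82 with 1 array left out, where 28 to 30 members were called higher. Some members that did not pass changed sign: Cenpb was at -0.003 with the mean of all probe sets, -0.025 with array weights and -0.104 without activated replicate 1, against 0.183 without activated replicate 2, Nsl1 at 0.091 with the mean and 0.182 without naive replicate 1, against -0.706 without naive replicate 2, and Zw10 at 0.04 without suffixed probe sets. The causes were not tested.

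Over all genes, 463 to 713 were called higher and 185 to 508 lower with 1 array left out. The lowest counts came without naive replicate 2, and without activated replicate 2 they were 527 and 276. Without naive replicate 1, 342 were called lower. Single probe sets gave 1323 called higher, no filter gave 349 called lower, and the bioC side as a block gave 859 called lower. Leaving out a naive array leaves 1, assumed to vary as the activated arrays do. Arrays of both groups share the numbers 1 and 2, and their deviations from the group means correlated at 0.17 and -0.13. The deviations of 2 naive arrays mirror each other, so these values cannot show whether arrays of equal number were handled together. With the replicate block 30 members were called higher and 0 lower, with a median of 1.73, and 974 genes were called higher and 793 lower. Nsl1 and Mad1l1 were not tested with the filter at the 60th percentile. Many naive values lie near or under the filter intensity, where the size of a fold change depends on the pseudocount.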
